A study of Mus musculus with 6 samples.

Results

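The lipoxygenases and cyclooxygenases are the enzymes that oxidise arachidonic acid and related polyunsaturated fatty acids. The 10 genes described here were *Alox12*, *Alox15*, *Alox12b*, *Aloxe3* and *Alox12e*, which encode lipoxygenases, *Alox5ap*, which encodes a protein that presents arachidonic acid to lipoxygenase, *Ptgs1* and *Ptgs2*, which encode the cyclooxygenases, *Ptgs2os2*, a long non-coding RNA gene beside *Ptgs2*, and *Ptges*, which encodes the inducible prostaglandin E synthase. They were chosen by their values in these same libraries at day 5 and day 7, which were already known, and were found by Ensembl ID among the 47643 gene IDs in the files. All 10 passed the filter on low counts, among 15792 genes tested. Because these values chose the genes, their differences between the days are given as a description. Where it is said whether one of them was past a threshold, this describes the fit and is no independent test.

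The samples were mouse salivary gland organoids (mSGOs), grown in Matrigel from dissociated submandibular cells of 3 C57BL/6 mice aged 8 to 12 weeks. Each mouse gave 1 library after 5 days and 1 after 7 days of culture, so that 6 libraries formed groups of 3. All were non-irradiated controls with no treatment beyond the medium. Both groups shared WRY medium, a mix of R-spondin1- and Wnt3a-conditioned media with Y27632, EGF, FGF2, insulin and dexamethasone. Per the methods of the study, the mice were female, and the cells had first been cultured as spheres, which were split into single cells before plating in gel. The comparison asks which genes differed between 5-day and 7-day mSGOs.

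Arachidonic acid is cut from membrane lipids by phospholipases and is then used along competing routes. Cyclooxygenases turn it into a prostaglandin precursor, from which synthases such as the *Ptges* product make the individual prostaglandins that act on cell surface receptors. Lipoxygenases add oxygen at a set carbon of the chain and give hydroperoxides, from which hydroxy acids, leukotrienes and hepoxilins are made. In stratified epithelium, the *Alox12b* and *Aloxe3* products act one after the other on linoleate held in ceramides, a step of the water barrier of skin.

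The libraries held 1918198 to 2837397 reads in genes. A gene at 0 in a library may hold up to 3 counts, which is 1.04 to 1.51 CPM, the unit in which counts are scaled to library sizes that carry TMM factors. Reads came from transcript 3′ ends and were not divided by length, so CPM of different genes were set side by side as transcript ends. Reads that fell in no single gene made up 13.7% to 14.4% of a library at day 5 and 9.12% to 9.74% at day 7. Reads of 13 mitochondrial protein genes made up 2.60% to 2.72% of gene counts at day 5, and 2.26%, 0.926% and 0.924% at day 7 in mice 1, 2 and 3. Of 8 salivary epithelial markers, 0 were at 0, and their sum was 14385 to 18162 CPM at day 5 and 11561 to 16013 CPM at day 7, most of it from *Krt5* and *Krt14*. Within the list, the duct keratin gene *Krt19* rose (log2 fold change 1.78 ± 0.21, edgeR adjusted p = 1.6e-05) and *Krt8* fell (-0.65 ± 0.20, adjusted p = 0.0374), and the part of such a shift in the differences between days was not tested. In bulk RNA, fewer cells that express a gene and less RNA per cell cannot be told apart.

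Of the 10 genes, 8 had an adjusted p under 0.05 with an absolute log2 fold change over 0.6 in edgeR, beside 12% of all genes tested. Among them, 5 were higher at day 7, beside 7.22% of all genes, and 3 were lower, beside 4.82%. The CPM of the days did not overlap for 8 genes (6 above and 2 below), beside 30.9% of all genes. These numbers of genes follow from how the genes were chosen. Among the 6, *Aloxe3* had only 0, 0 and 2 counts at day 5 and 3, 8 and 4 at day 7, and no difference was established for it. In the order of their mean level at day 5, *Ptgs1*, *Ptgs2*, *Alox12*, *Ptges* and *Ptgs2os2* stood at 162, 70.1, 37.6, 22.8 and 8.73 CPM, and no neighbouring pair in that order overlapped over its 3 libraries. The other 5 genes were below 1 CPM on average. At day 7 the order was *Alox15*, *Alox12*, *Ptges* and *Ptgs1*, at 111, 101, 81.9 and 67.3 CPM, where each gene overlapped with the next, and then *Ptgs2* at 22.6 CPM and *Alox12b* at 12.1 CPM, which overlapped with each other but not with *Ptgs1*.

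**Figure D1:**
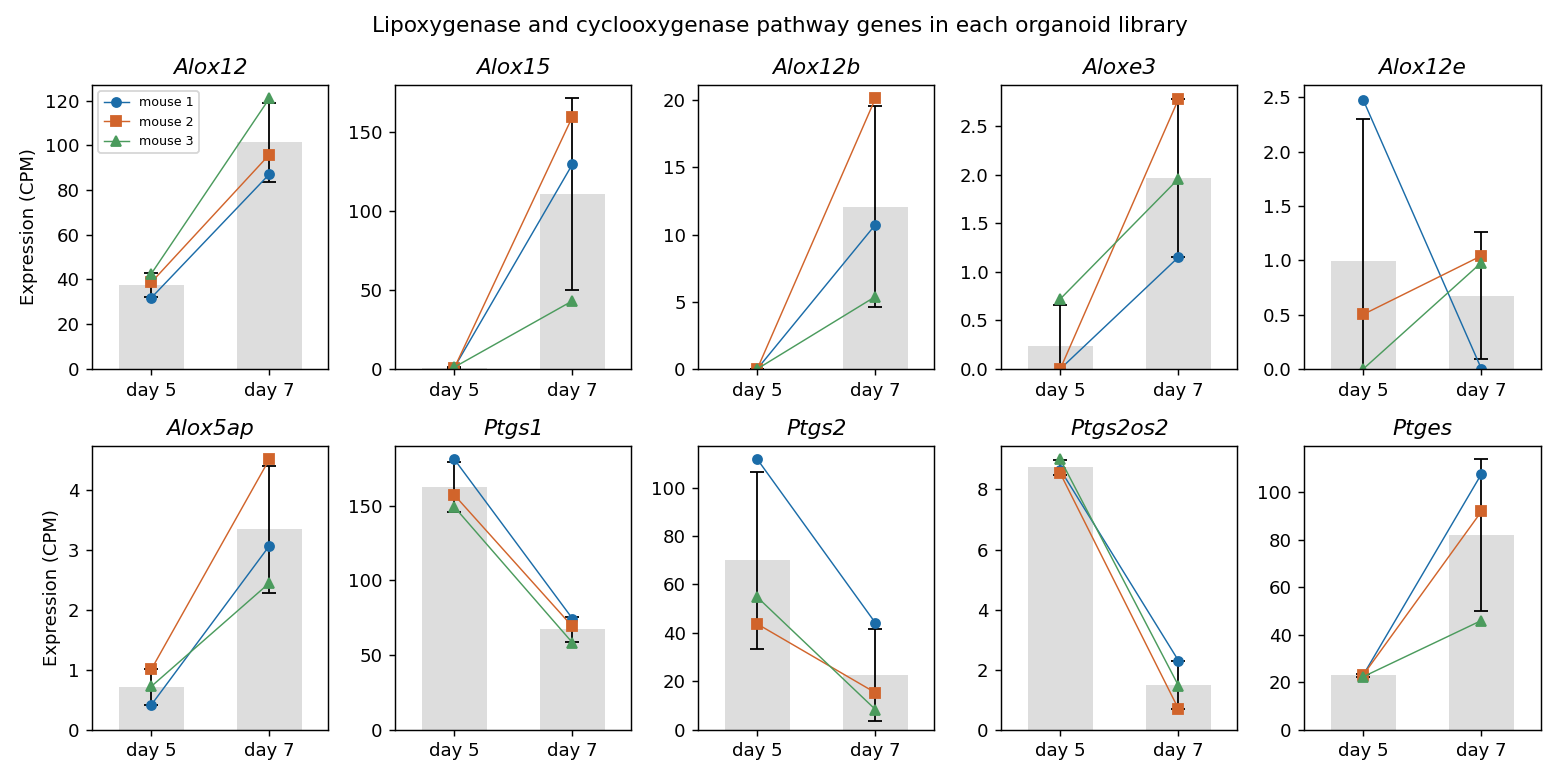
Expression of the 10 genes in CPM (linear axes from 0, a separate scale for each gene) at day 5 and day 7. Points joined by a line are the libraries of 1 mouse, bars are means and error bars are SDs over 3 libraries. All 3 mice had higher values at day 7 for *Alox12*, *Alox15*, *Alox12b*, *Aloxe3* (17 counts in all), *Alox5ap* and *Ptges* and lower ones for *Ptgs1*, *Ptgs2* and *Ptgs2os2*, whereas *Alox12e* went both ways.

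Of the 10 genes, 5 encode lipoxygenases and lie on chromosome 11 in a pair of groups, *Aloxe3* with *Alox12b* and *Alox12* with *Alox12e* and *Alox15* (positions are on GRCm39). *Aloxe3* (chr11:69016722-69039941) and *Alox12b* (chr11:69041472-69060618) lie on the plus strand, 1531 bases apart. *Alox12* (chr11:70132283-70146221), *Alox12e* (chr11:70206436-70213454) and *Alox15* (chr11:70234970-70242858) follow each other on the minus strand. The 250 bases before the start of the Ensembl canonical transcript are given for 3 of these genes, whose windows hold at most 11 bases of annotated exon, to set the sequence of *Alox12b*, which was at 0 at day 5, beside those of *Aloxe3* and *Alox12e*, which had few counts on both days. Capitals mark exact matches, on either strand, to 6 short motifs chosen with these sequences in view.
Alox12b chr11:69047565-69047814 (plus strand, 5′ to 3′): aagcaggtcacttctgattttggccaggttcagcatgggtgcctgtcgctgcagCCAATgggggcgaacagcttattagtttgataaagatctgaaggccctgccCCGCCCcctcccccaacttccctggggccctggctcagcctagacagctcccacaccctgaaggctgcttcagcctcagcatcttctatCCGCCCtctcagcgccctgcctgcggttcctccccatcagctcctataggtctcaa
Aloxe3 chr11:69016472-69016721 (plus strand, 5′ to 3′): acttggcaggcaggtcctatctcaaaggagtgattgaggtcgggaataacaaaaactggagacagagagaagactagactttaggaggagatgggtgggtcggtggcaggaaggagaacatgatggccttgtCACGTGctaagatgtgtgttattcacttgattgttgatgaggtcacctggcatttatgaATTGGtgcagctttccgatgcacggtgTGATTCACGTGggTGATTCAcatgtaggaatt
Alox12e chr11:70213455-70213704 (minus strand, 5′ to 3′): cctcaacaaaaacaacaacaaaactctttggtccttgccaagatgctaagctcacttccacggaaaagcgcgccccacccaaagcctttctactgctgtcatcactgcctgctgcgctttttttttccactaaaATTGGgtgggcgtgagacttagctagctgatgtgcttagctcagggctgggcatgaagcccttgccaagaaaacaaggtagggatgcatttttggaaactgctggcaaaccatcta
The motifs were the TATA box (TATAAA), the AP-1 site (TGANTCA), the cAMP response element (TGACGTCA), the E-box (CACGTG), the GC box (GGGCGG) and the CCAAT box (CCAAT). Among 15566 windows of the same kind, one for each tested gene with a canonical transcript, they were found in 9.25%, 5.16%, 1.81%, 7.02%, 44.2% and 35.0%. *Alox12b* held 2 GC boxes on the reverse strand and 1 CCAAT box on the forward strand. Its window lies inside the gene span given above, because the canonical transcript starts within that span. *Aloxe3* held 2 E-boxes and 2 AP-1 sites, of which 1 of each overlap 32 to 22 bases before the start, and 1 CCAAT box on the reverse strand. *Alox12e* held 1 CCAAT box on the reverse strand. The CCAAT box, shared by all 3, is thus also in 35.0% of all windows. Of the 9 genes searched, 5 windows held a match and 4 (*Alox5ap*, *Ptgs1*, *Ptgs2* and *Ptgs2os2*) held none, which says only that these letters are not in these windows.

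*Alox15* encodes the leukocyte-type lipoxygenase, which in the mouse makes mainly hydroxy acids of the same kind as the platelet-type enzyme. Its counts were 2, 1 and 3 at day 5 and 338, 460 and 88 at day 7 in mice 1, 2 and 3. In CPM these were 0.825, 0.502 and 1.08 at day 5 and 130, 160 and 43.1 at day 7. Every day 7 library was far above every day 5 library, and mouse 3 was the lowest of the 3 at day 7. The means were 0.803 ± 0.290 and 111 ± 60.5 CPM (SD, n = 3 per day), with a fitted log2 fold change of 6.98 ± 0.53 (SE). Over pooled counts the ratio was 141, with a 95% interval of 64.5 to 385 from counting error only (exact binomial), since day 5 rests on 6 counts. Of the 10 genes it moved the most where a ratio could be given.

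*Alox12* encodes the platelet-type lipoxygenase, which is also made by keratinocytes, and was the lipoxygenase with appreciable counts on both days. It was at 31.8, 38.7 and 42.5 CPM at day 5 and at 87.1, 95.8 and 121 CPM at day 7. The days did not overlap, and mouse 3, the lowest for *Alox15* at day 7, was the highest here. The mean was 37.6 ± 5.45 at day 5 and 101 ± 17.6 CPM at day 7, a log2 fold change of 1.42 ± 0.22. Within mice, the log2 ratio of day 7 over day 5 (with a prior count of 2) was 1.43, 1.29 and 1.49, the narrowest spread among the genes that were higher.

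*Alox12b* encodes the lipoxygenase of the skin barrier and had 0 counts in all 3 day 5 libraries. At day 7 it had 28, 58 and 11 counts, which were 10.7, 20.1 and 5.38 CPM. Each of these lay above what 3 counts would give in any library. Against a floor of 3 counts in each day 5 library, it was at least 10.3-fold higher at day 7, and at least 6.70-fold higher without the day 7 library of mouse 2, which held the most counts. The partner enzyme gene *Aloxe3* had 0, 0 and 2 counts at day 5 and 3, 8 and 4 at day 7. Its pooled ratio was 7.16 (95% counting interval 1.67 to 64.5), and its log2 fold change of 2.64 ± 0.97 was 5.28 without mouse 3 at day 5, which held its only 2 counts there. *Aloxe3* was not past the threshold, and its 1.15 CPM in mouse 1 at day 7 lay below the 1.24 CPM that a count of 0 allows in that mouse at day 5, so no difference was established for it at this depth.

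*Alox12e*, the epidermal-type lipoxygenase gene between *Alox12* and *Alox15*, stayed close to detection. Its counts were 6, 1 and 0 at day 5 and 0, 3 and 2 at day 7, so the groups overlapped. The log2 fold change was -0.53 ± 1.09, and without mouse 1 at day 5 it was 1.44. No direction can be read from 12 counts in all. The gene lies 21516 bases from *Alox15* and 60215 bases from *Alox12*, which were both higher at day 7.

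The 7 mouse lipoxygenase genes measured, with *Alox5* and *Alox8* added, summed to 35.9, 40.7 and 44.7 CPM at day 5 and to 229, 280 and 172 CPM at day 7. *Alox12* held 92.9% ± 3.81 of these reads at day 5, and 47.4% ± 19.8 at day 7 (SD over 3 libraries). The share of *Alox15* was 1.98% ± 0.652 at day 5, and at day 7 it was 56.5%, 57.0% and 25.0% in mice 1, 2 and 3. In mouse 3 *Alox12* thus remained the main lipoxygenase, with 70.2% of counts at day 7, whereas in mice 1 and 2 *Alox15* was. *Alox5*, the leukotriene-forming lipoxygenase gene, had 1, 2 and 1 counts at day 5 and 0, 2 and 0 at day 7.

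**Figure D2:**
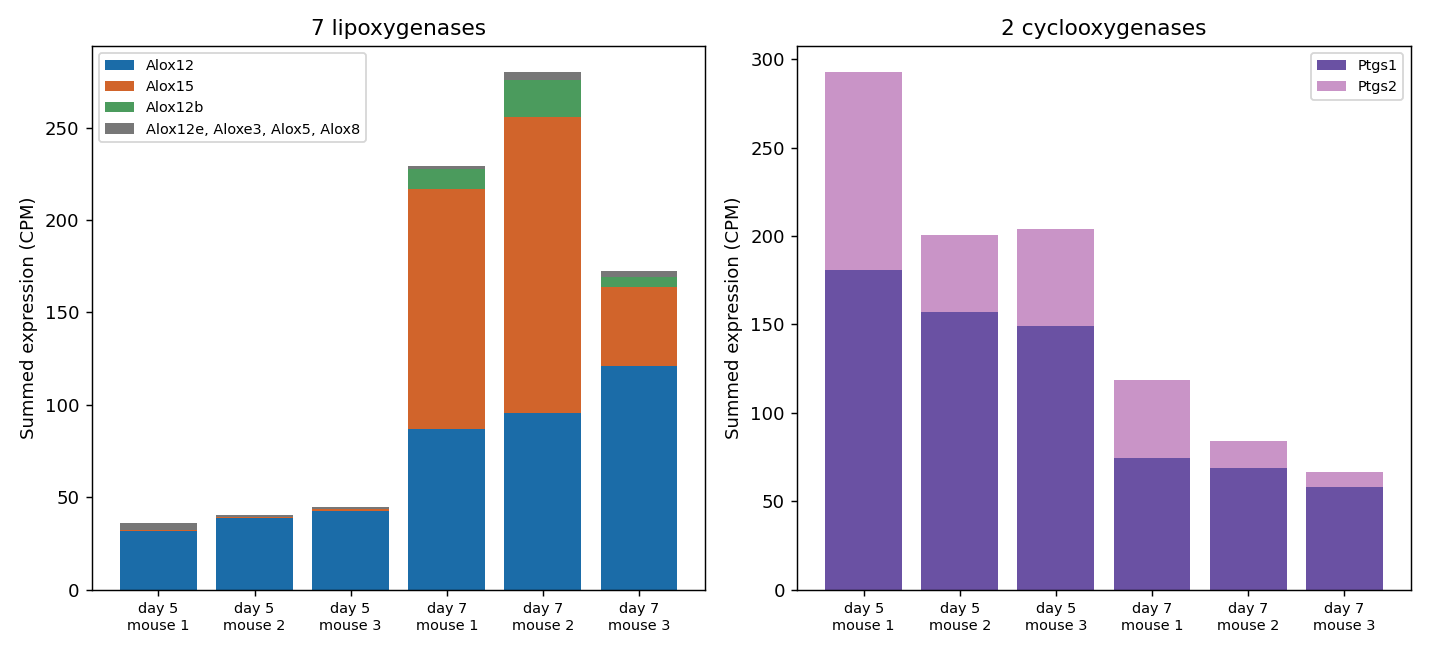
Summed CPM (vertical axis, from 0) in each of the 6 libraries, stacked by gene, for 7 lipoxygenases on the left and the 2 cyclooxygenases on the right. The lipoxygenase sum was 40.4 ± 4.40 CPM at day 5 and 227 ± 54.0 at day 7, and the cyclooxygenase sum was 233 ± 52.3 and 89.8 ± 26.4 CPM (mean ± SD, n = 3).

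*Alox5ap* (chr5:149196003-149227762, plus strand) encodes the activating protein of leukotriene synthesis, which hands arachidonic acid to the *Alox5* product in leukocytes. It had 1, 2 and 2 counts at day 5 and 8, 13 and 5 at day 7. The days did not overlap, but all 6 libraries were at or below 4.51 CPM. The pooled ratio was 4.97 (95% counting interval 1.88 to 16.6) and the log2 fold change 2.21 ± 0.66. *Alox5ap* was not past the threshold with mouse as a block, with DESeq2, without any one day 5 library or without mouse 2 at day 7, and filterByExpr left it out. Its usual partner *Alox5* was near 0 on both days, as given above.

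*Ptgs1* (chr2:36120438-36142287, plus strand) encodes the constitutive cyclooxygenase and had the highest level of the 10 genes at day 5. It was at 181, 157 and 149 CPM at day 5 and at 74.4, 69.1 and 58.3 CPM at day 7. The days were well apart and the order of the mice was the same on both. The mean at day 5 was 162 ± 16.6 CPM and at day 7 it was 67.3 ± 8.23, which gave a log2 fold change of -1.27 ± 0.19. The within-mouse log2 ratios were -1.27, -1.18 and -1.34, the narrowest spread of the 10 genes.

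*Ptgs2* (chr1:149975194-149983978, plus strand) encodes the inducible cyclooxygenase, a gene that responds quickly to growth factors and inflammatory signals. It was at 112, 43.7 and 54.8 CPM at day 5 and at 44.1, 15.3 and 8.32 CPM at day 7. The day 7 library of mouse 1 lay just above the day 5 library of mouse 2, so the groups overlapped, and mouse 1 was the highest on both days. In each mouse the value was lower at day 7, by log2 ratios of -1.33, -1.47 and -2.60. The means were 70.1 ± 36.5 and 22.6 ± 19.0 CPM, with a log2 fold change of -1.62 ± 0.42. Leaving out single libraries moved it from -1.11 (without mouse 1 at day 5) to -2.53 (without mouse 1 at day 7). *Ptgs2* was not past the threshold without mouse 1 at day 5, without mouse 2 at day 7, with filterByExpr or with DESeq2. *Ptgs2* held 28.9% ± 8.40 of cyclooxygenase counts at day 5 and 22.6% ± 13.0 at day 7, so *Ptgs1* was the main cyclooxygenase transcript in all 6 libraries.

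*Ptgs2os2* (chr1:150034388-150040866, minus strand), which RefSeq also lists as lincRNA-Cox2, lies 50410 bases beyond the end of *Ptgs2* and is best known as an inducible regulator of immune genes in macrophages. It was at 8.66, 8.54 and 9.01 CPM at day 5 and at 2.30, 0.694 and 1.47 CPM at day 7. The 3 day 5 libraries were nearly equal and all above the day 7 libraries, which rested on 6, 2 and 3 counts. The log2 fold change was -2.53 ± 0.47. A second non-coding gene, *Ptgs2os* (chr1:149909888-149975714, minus strand), overlaps the 5′ end of *Ptgs2* and was not among the 10 genes. *Ptgs2os* stood at 5.97 ± 0.180 CPM on day 5 and 0.650 ± 0.144 on day 7, where it rested on 2, 2 and 1 counts. It fell by 3.08 ± 0.56 on the log2 scale with an edgeR adjusted p of 0.0013, and was lower in 3 of 3 mice. Around *Ptgs2*, the coding gene and both non-coding genes were thus lower at day 7. The strand setting of the authors' counting is not given in the sources used here, so reads of *Ptgs2* and *Ptgs2os* could be told apart only outside their shared bases. The last 500 transcript bases of each, where 3′ reads fall, share none with an exon of the other.

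*Ptges* (chr2:30779483-30820196, minus strand) encodes the membrane-bound synthase that makes prostaglandin E2 from the product of the cyclooxygenases. It was at 23.1, 23.1 and 22.3 CPM at day 5 and at 108, 92.0 and 46.02 CPM at day 7. The day 5 libraries were almost equal and the day 7 libraries spread, with mouse 3 the lowest. The mean was 22.8 ± 0.439 at day 5 and 81.9 ± 32.1 CPM at day 7, a log2 fold change of 1.85 ± 0.27. *Ptges* thus went the other way from *Ptgs1* and *Ptgs2*, whose product it uses, in 3 of 3 mice.

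**Figure D3:**
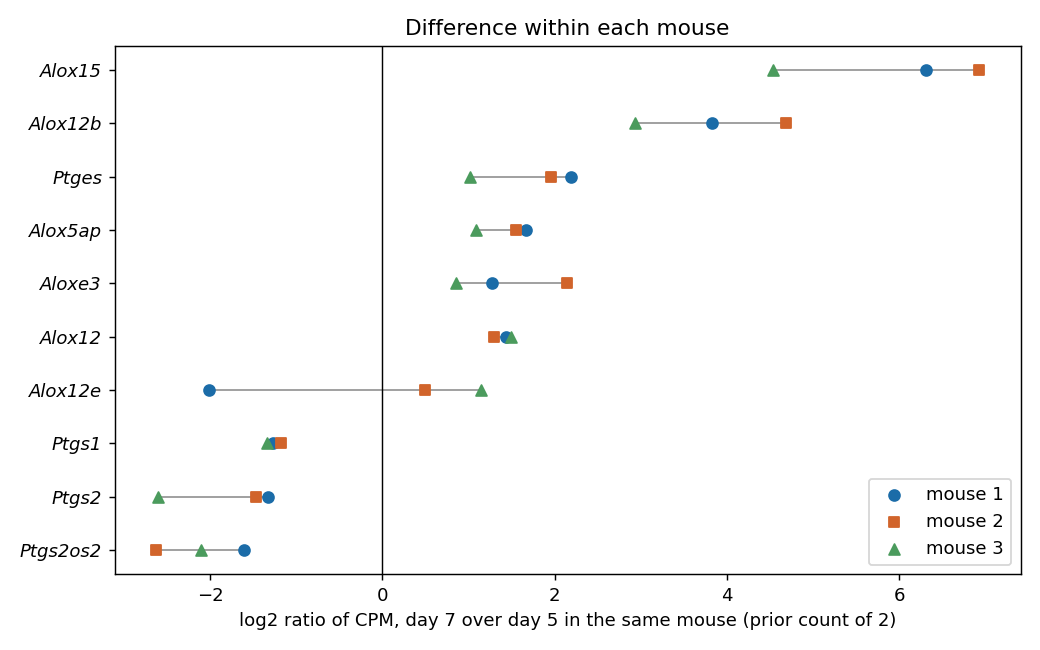
Log2 ratio of CPM at day 7 over day 5 within each of 3 mice (horizontal axis, prior count of 2), with 1 row per gene and genes ordered by their mean ratio. Mouse 3 had the smallest ratio of the 3 for *Alox15* (4.53), *Alox12b* (2.93), *Ptges* (1.02), *Alox5ap* (1.09) and *Aloxe3* (0.85), and the most negative for *Ptgs2* (-2.60).

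Mouse 3 was the lowest or the highest of the 3 mice at day 7 for several of these genes. *Alox15*, *Alox12b*, *Ptges* and *Alox5ap* were each lowest in its day 7 library, *Alox12* was highest there and *Ptgs1* and *Ptgs2* were lowest. For *Alox5ap* this rests on 8, 13 and 5 counts, and *Ptgs1* was lowest in mouse 3 at day 5 too. For *Ptgs2*, mouse 1 lay furthest from the others at day 7, at 44.1 CPM beside 15.3 and 8.32. Without the day 7 library of mouse 3, the log2 fold change was 7.36 for *Alox15*, 2.13 for *Ptges*, 1.28 for *Alox12* and -1.26 for *Ptgs2*. These shifts kept every direction. The mitochondrial share was 0.924% in this library, 0.926% in the day 7 library of mouse 2, which was the highest for *Alox15*, and 2.26% in that of mouse 1. The part of this share in the differences between mice was not tested.

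Lipoxygenase and cyclooxygenase genes are also used by blood cells, so their markers were summed in each library. Of 12 macrophage and leukocyte markers 9 were at 0 in all libraries, among them *Csf1r*, *Adgre1*, *Tyrobp* and *Lyz2*. Their sum was 0.360 to 1.65 CPM at day 5 and 4.60 to 6.85 CPM at day 7, and *Cd68*, a lysosomal gene, gave most of it and rose (log2 fold change 2.36 ± 0.61, edgeR adjusted p = 0.0151). Of 6 mast cell markers 5 were at 0, with 1 count of *Kit* in all. The sum of 7 platelet markers was 40.2 to 65.6 CPM at day 5 and 90.6 to 308 CPM at day 7, where the chemokine gene *Ppbp* gave nearly all counts and *Gp9* and *Gp1ba* were at 0. *Ppbp* rose (log2 fold change 1.96 ± 0.33, edgeR adjusted p = 0.00061) and had 492, 881 and 178 counts in mice 1, 2 and 3 at day 7, in the same order as *Alox15*. Of 8 fibroblast markers 3 were at 0 and the sum reached 2.94 CPM, and of 6 endothelial markers 2 were at 0 and the sum reached 1.15 CPM. The part of these cells in the differences was not tested.

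The other genes of the pathway, which were listed by role but with earlier results of these data known, show the steps around the 10 genes. Of 78 such genes, 18 were at 0 in all libraries and 53 could be tested. Of those, 7 (13.2%) were past the threshold, 4 higher and 3 lower, beside 12% of all genes. An unadjusted p under 0.05 in edgeR was found for 12 of them. The share of all genes with such a p was not counted, so no excess can be read from the 12. Their median log2 fold change was 0.23, beside -0.0073 over all genes tested.

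Of the 15 tested genes for release and reacylation of arachidonate, 1 rose and 1 fell. *Mgll*, the monoacylglycerol lipase that frees arachidonic acid from an endocannabinoid, rose by 4.39 ± 0.54 on the log2 scale, with means of 0.592 ± 0.358 and 12.9 ± 4.08 CPM (edgeR adjusted p = 2.9e-05). Its counts were 1, 2 and 1 at day 5 and 27, 31 and 36 at day 7, so the size of the rise is uncertain. *Faah*, the amidase that degrades anandamide, fell by 1.58 ± 0.51 on the log2 scale (adjusted p = 0.0479), a call that was lost with DESeq2 and without any single library other than day 7 of mouse 3. *Pla2g4a*, the cytosolic phospholipase that supplies the cyclooxygenases, was at 54.6 ± 7.80 and 53.0 ± 5.55 CPM (adjusted p = 0.945). *Acsl4*, which loads arachidonate onto coenzyme A, had the highest level of this group over the 6 libraries together, at 75.5 ± 15.5 and 86.4 ± 25.4 CPM (adjusted p = 0.645).

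Around the lipoxygenases, none of the 8 tested leukotriene and other lipoxygenase genes was past the edgeR threshold, 0 had an unadjusted p under 0.05, and DESeq2 also called 0. *Lta4h*, the leukotriene hydrolase gene, was the most abundant, at 36.9 ± 5.18 and 29.0 ± 11.3 CPM. Of 11 genes for epoxyalcohol and acylceramide steps, which make or carry the acylceramide that these lipoxygenases act on or handle epoxides, 2 rose. *Elovl4*, which extends the very long fatty acids of acylceramide, rose by 3.02 ± 0.32, with means of 5.68 ± 1.93 and 45.7 ± 12.1 CPM (edgeR adjusted p = 7e-06). *Ephx2*, an epoxide hydrolase, rose by 1.21 ± 0.38 on the log2 scale (adjusted p = 0.0445), a call lost with library totals, with DESeq2 and without any single library other than day 7 of mouse 3. *Ephx3*, another epoxide hydrolase, and *Cers3*, the ceramide synthase for very long chains, had adjusted p of 0.0743 and 0.0865 in edgeR, and 0.0215 and 0.0496 with mouse as a block. *Abhd5*, the most abundant of the group over the 6 libraries together, was at 75.5 ± 4.45 and 88.3 ± 9.02 CPM (adjusted p = 0.485).

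Beside *Ptges*, 7 other prostanoid synthase genes were tested and 1 fell. *Hpgds*, which makes prostaglandin D2, fell by 1.34 ± 0.33 on the log2 scale, with means of 19.7 ± 5.62 and 7.85 ± 2.54 CPM (edgeR adjusted p = 0.0112). *Ptges3*, the cytosolic protein also known as an HSP90 co-chaperone, was at 202 ± 11.7 and 157 ± 14.5 CPM (adjusted p = 0.217), and *Ptges2* at 8.85 ± 1.72 and 7.00 ± 2.02 CPM (adjusted p = 0.541). *Prxl2b*, a prostaglandin F synthase, had an adjusted p of 0.102, and 0.0170 with mouse as a block. The prostacyclin, thromboxane and lipocalin-type prostaglandin D synthase genes were at 0 in every library. *Ptges* was therefore one of the 3 prostaglandin E synthase genes, and of these 3 its mean was the second highest on both days.

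None of 7 genes for prostaglandin transport and inactivation was past the threshold in edgeR or DESeq2, and 0 had an unadjusted p under 0.05 in edgeR. *Slco2a1*, the prostaglandin uptake transporter, was at 127 ± 10.3 and 151 ± 32.9 CPM. Of 15 eicosanoid receptor genes 9 were at 0 and 4 could be tested. *Ptger4*, which encodes a receptor for prostaglandin E2, rose by 2.86 ± 0.46 on the log2 scale, with means of 3.05 ± 2.14 and 22.9 ± 11.1 CPM (edgeR adjusted p = 0.00046), and was higher in 3 of 3 mice, as *Ptges* was. *Ltb4r2*, a receptor for leukotriene B4 and for a cyclooxygenase product, was at 12.4 ± 4.09 and 18.9 ± 9.07 CPM (adjusted p = 0.28).

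**Figure D4:**
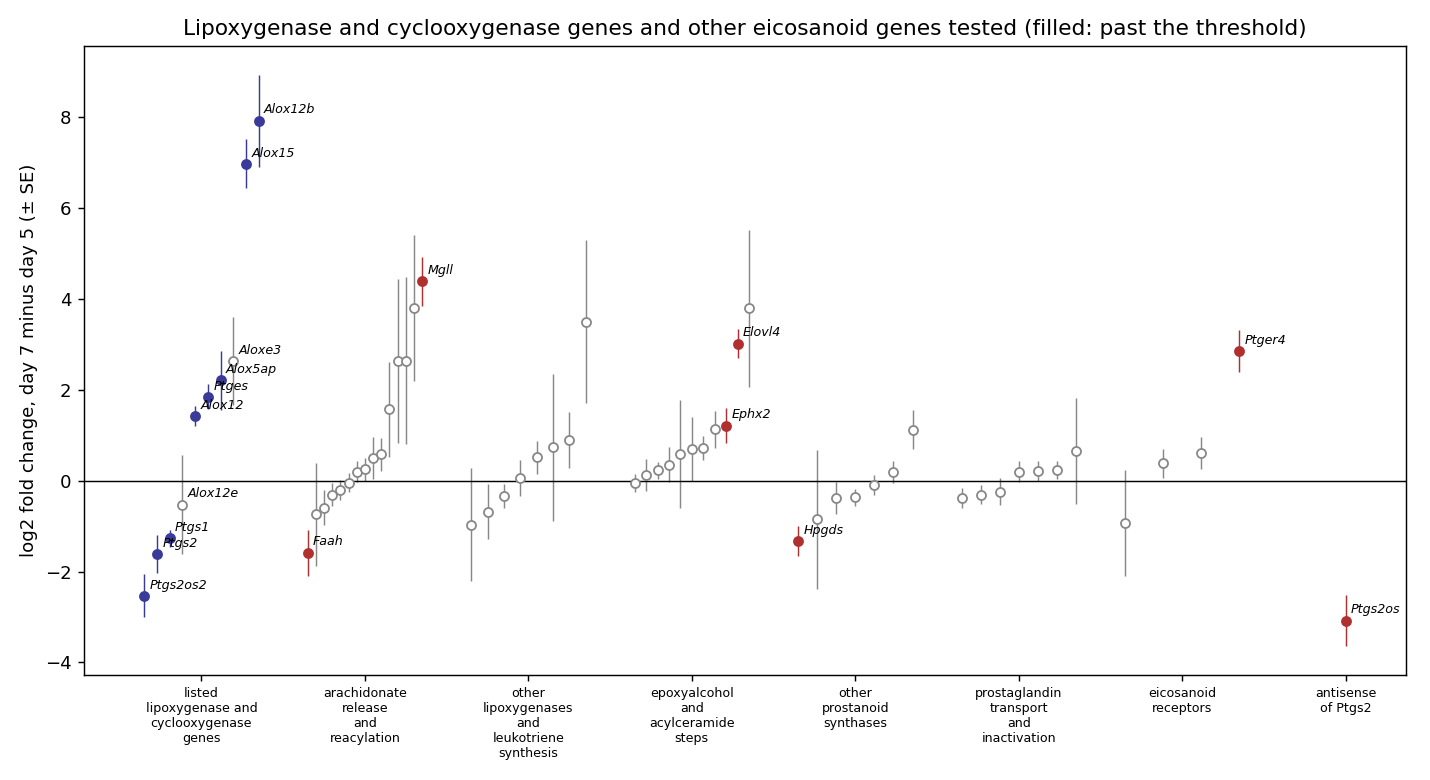
Log2 fold change of day 7 over day 5 (vertical axis, ± SE from edgeR) for the 10 genes, which were chosen with these values known, and for 53 other eicosanoid genes by role. Filled points are past the threshold, 8 of the 10 genes and 7 of the 53, and the fitted value of *Alox12b*, which was at 0 at day 5, depends on the prior count.

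Genes near the 10 in the genome gave a background for their positions. Within 100000 bases, 37 other genes had a count and 31 were tested, of which 3 were higher and 5 lower at day 7 (*Ptgs2os* among them). These 8 were 25.8% of the neighbours tested, beside 12% of all genes, and the lower ones 16.1%, beside 4.82%. This set is small and was not compared with other regions. Beside *Alox15*, *Pelp1* fell by 0.78 ± 0.22 on the log2 scale (edgeR adjusted p = 0.0263), while *Arrb2* and *Med11* were not past the threshold. Near *Alox12b* and *Aloxe3*, *Borcs6* was higher (log2 fold change 1.47 ± 0.28, edgeR adjusted p = 0.0018) and *Aurkb* lower (-1.14 ± 0.31, adjusted p = 0.0205). *Snord118*, a small nucleolar RNA gene near the same pair, was higher (2.50 ± 0.67, adjusted p = 0.0197), on 2, 2 and 2 counts at day 5 and 4, 18 and 15 at day 7. It lies within the span of *Tmem107* on the same strand, which was not past the threshold. Whether their reads could be told apart was not examined. *Prrx2*, 5064 bases from *Ptges*, was also higher (1.41 ± 0.42, edgeR adjusted p = 0.0332). *BC005624*, 40314 bases from *Ptges*, was lower (-1.02 ± 0.27, adjusted p = 0.0165), as was *Hmgb1*, 74188 bases from *Alox5ap* (-0.85 ± 0.20, adjusted p = 0.0083 in edgeR). The neighbours thus went both ways.

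The last 500 transcript bases of the 10 genes share no base with same-strand exons of other genes. On the opposite strand, *Alox12b* shares some with *Gm72238*, and its reads could not be told from those of that gene if strand was not used. Matches of at least 90% identity to other transcripts were at most 221 bases long and were found for *Ptgs2os2* (*Gm38542*, 221 bases), *Alox12* (*Hscb*, 161 bases), *Ptgs1* (*Pex2*, 42 bases) and *Alox5ap* (*Or10h28*, 41 bases). For the other 6 genes, the lipoxygenases *Alox15*, *Alox12b*, *Aloxe3* and *Alox12e* included, there was none.

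For the genes of at least 10 CPM on average, the 3 genes with the most similar pattern were found among 8171 others, by Pearson's r of log2 CPM over the 6 libraries. The 6 points are 2 days of the same 3 mice. Where the days did not overlap, r rests largely on the gap between them. For *Ptgs2*, whose days overlapped, r rests also on the spread between mice. From 87 to 270 genes per pattern had r over 0.95. *Alox15* was most like *Sprr2e* (r = 0.9989), *Lce3f* (0.9982) and *Asprv1* (0.9978). *Alox12* was nearest to *Mlph* (0.9996), *Mpzl3* (0.9972) and *Clybl* (0.9961), and *Ptges* to *Cdh13* (0.9974), *Krt10* (0.9957) and *Tmprss11e* (0.9946). *Ptgs1* was nearest to *Gpd2* (0.9955), *Tbc1d2* (0.9945) and *Psma3* (0.9943), and *Ptgs2* to *Tmtc3* (0.9972), *Bzw1* (0.9958) and *Idh3a* (0.9930). *Sprr2e* and *Lce3f* belong to families of near-identical genes, whose reads the counting may have split. The genes listed for *Alox15*, *Alox12* and *Ptges*, which were all higher at day 7, were different ones. Only 3 were kept per pattern out of many with r over 0.95, so this does not show that the patterns differ.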

How the data were processed

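RNA of 6 libraries was read with the Lexogen QuantSeq 3′ kit. Each deposited file lists a raw read count for every Ensembl gene ID, which the authors made after alignment to GRCm39 and did not normalise. The aligner, annotation, strand setting and treatment of reads with several matches are not given in the sources used here. Each file ends with 5 entries that name no gene, which were left out.

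Names and positions came from GENCODE vM39, by exact ID (43465 of 47643 IDs, 91.2%). The 10 genes and all gene lists were chosen with earlier results of these data known. In edgeR 4.0.16 (R 4.3.3), day 7 was set against day 5 with TMM scaling and the quasi-likelihood F test (two-sided), for the 15792 genes that had a minimum of 1 count in 2 or more libraries, and p-values were adjusted by Benjamini-Hochberg. A gene was past the threshold when the adjusted p was under 0.05 and its log2 fold change exceeded 0.6 in size, after the study's methods. SE is the absolute log2 fold change divided by the square root of F. The procedure was tested on simulated data. Libraries of a day differed beyond counting noise, and more so at day 7. The chi-square per degree of freedom was 1.99 to 3.24 between day 5 libraries and 12.3 to 19.9 between day 7 libraries.

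Same-numbered libraries come from the same mouse, per the labels. The correlation of their deviations from the day means was 0.137, -0.100 and 0.162 in mice 1, 2 and 3 (8172 genes). Alternatives were DESeq2 1.42.0, other scalings and filters, mouse as a block and leaving out each library.

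Genes named were the 10, then pathway genes past the threshold or most abundant in their role (with those the block brought past it and *Pla2g4a*, *Alox5*, *Ptges2* and 4 marker genes that were past the threshold, chosen after their values were seen), neighbours within 100000 bases, and the 3 nearest patterns. Transcript ends were compared with BLASTN 2.17.0. Intervals and floors cover counting error only. One promoter window is not reported here.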

Additional observations from a re-analysis of the deposited data

How the results depend on the processing

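Over all genes, 1901 of 15792 tested were past the threshold. There were 1899 with DESeq2 size factors, 1578 with the DESeq2 Wald test and 1643 of 10090 tested with filterByExpr. With library totals only, 950 were higher and 1008 lower, against 1140 and 761 with TMM. With mouse as a replicate block the count was 2340. Leaving out 1 library gave from 797 of 15415 tested to 2576 of 15400 tested. Of the 10 genes, 6 to 9 were past the threshold under every alternative, which follows from how they were chosen and is no independent check. With the DESeq2 Wald test 6 were past it (*Ptgs2* and *Alox5ap* were lost), and with the block 7 (*Alox5ap* was lost). With filterByExpr, 7 of the 10 genes were tested and *Ptgs2* was lost. Of the other eicosanoid genes, 7 were past it, 10 with the block or with no filter, and 4 to 9 when 1 library was left out. *Hpgds* was lost without mouse 2 at either day, whereas *Mgll*, *Elovl4*, *Ptger4* and *Ptgs2os* were past the threshold in all 12 alternatives. Apart from *Alox12e*, the direction of each of the 10 genes was the same in all alternatives in which it was tested. Depth limits *Alox12e*, *Aloxe3* and *Alox5ap*, which had 12, 17 and 31 counts in all.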
